A study of Danio rerio with 45 samples.

Results

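Zebrafish (Danio rerio) embryos were cut into 5 slices along the animal-vegetal axis and each slice was sequenced on its own (TOMO-seq). Section A is the slice at the animal end, and E the one at the vegetal end. The comparison set out here is section A at 3 hours post fertilisation (hpf; about 1000 cells, 3 samples) against section A at 1 hpf (about 4 cells, 3 samples), chosen by stage and section label. These are 6 of the 40 libraries with counts. Section A at 2 hpf (about 64 cells) has 2 libraries, and sections B to E of the same 1 and 3 hpf embryo samples have 24. No genotype, strain or treatment is given in the sources used here; the labels set the groups apart by age alone, and whether they also differ in parents or handling is not known. How many embryos entered a sample is not given there either, and p-values then measure only the spread between these samples.

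The animal pole carries the blastodisc, in which the early cells form, while the yolk lies vegetally. At 1 hpf the embryo runs on RNA that the mother laid down in the egg. By 3 hpf zygotic transcription is beginning. The first transcripts include the miR-430 precursors, whose mature microRNA then promotes deadenylation and clearance of maternal mRNAs. Maternal RNAs also move. Germ plasm, the RNA and protein aggregate that specifies primordial germ cells, is carried into the early cleavage furrows and then sits in a few cells only.

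Section A libraries held 5398317, 4316597 and 4399180 counts at 3 hpf (replicates 1, 2 and 3) and 1466522, 4692268 and 6428496 counts at 1 hpf. All libraries were made from 20 ng of RNA, so each value is a share of the RNA in its section and not an amount per embryo. Fewer cells of a type and less RNA per cell cannot be told apart in such data. The section label held against 8 transcripts taken as animal or vegetal. Genes and tests were chosen with earlier results of these data known, so this is not an independent check. The animal transcripts exd2, ppp2r3b, fbxo5 and foxh1 were higher in section A than in E at both stages, and the vegetal transcripts dazl, sybu, grip2a and hwa were higher in E. The exd2 level in section A averaged 260 CPM at 3 hpf and 279 CPM at 1 hpf (read counts scaled to a common library size), against 27.0 and 18.6 CPM in E. Marker genes of the yolk syncytial layer, of maternal liver and blood, and of the mitochondrial genome had no row in the table.

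A total of 12301 genes were tested between 3 and 1 hpf. Replicate 3 of both stages stood apart from replicates 1 and 2 on the first principal component (58.2% of the variance), and the shallow replicate 1 of 1 hpf stood apart on the second (20.6%). Same-numbered samples of the 2 stages deviated together, which rests mainly on replicate 3, so the test was run without and with the replicate number as a block. Numbers 1 and 2 were not separable in this check, and no label explains a shared number. Without the block, 0 genes were higher at 3 hpf and 5 were lower (0% and 0.0406% of those tested; edgeR quasi-likelihood test, adjusted p at 0.05), while 893 had an unadjusted p under 0.05. With the block, 52 genes were higher (0.423%) and 186 lower (1.51%; 1.93% in both directions), and the 5 were among them. Every one of the 238 differed the same way in all 3 same-numbered pairs. The block compares within these pairs, so such agreement is largely built into the call. The samples of 3 hpf and 1 hpf did not overlap for 43 of the 52 and 165 of the 186, against 6.35% and 7.8% of all tested genes. A lack of overlap is likewise favoured by a call made on these same samples, so these counts are a description. The 5 genes lower without the block were pef1, cobll1a, gbgt1l1, rab11fip1a and eml3, so every other call in section A described here was made with the block alone. In what follows, "rose" and "fell" refer to calls with the block, and a log2 fold change is the value from the fit without it unless named as blocked. Without the block, leaving out replicate 3 of 1 hpf left 4 calls and leaving out any of the other 5 libraries left 0. Leaving out number 1, 2 or 3 from both stages gave 282, 512 or 168 calls with the block. Within replicates 1 and 2 alone 167 genes were called without a block, and replicate 3, with 1 library a stage, allows no value of its own.

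Most changes were small. The genes that rose had a median log2 fold change of 0.55, and 14 of 52 changed by at least 1 log2 unit. Those that fell had a median of -0.75, and 43 of 186 reached 1 log2 unit. The median over all tested genes was 0.01. A total of 23 of the 52 risen genes carried clone-based or LOC symbols without a descriptive name, as did 14.1% of all tested genes.

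**Figure D1:**
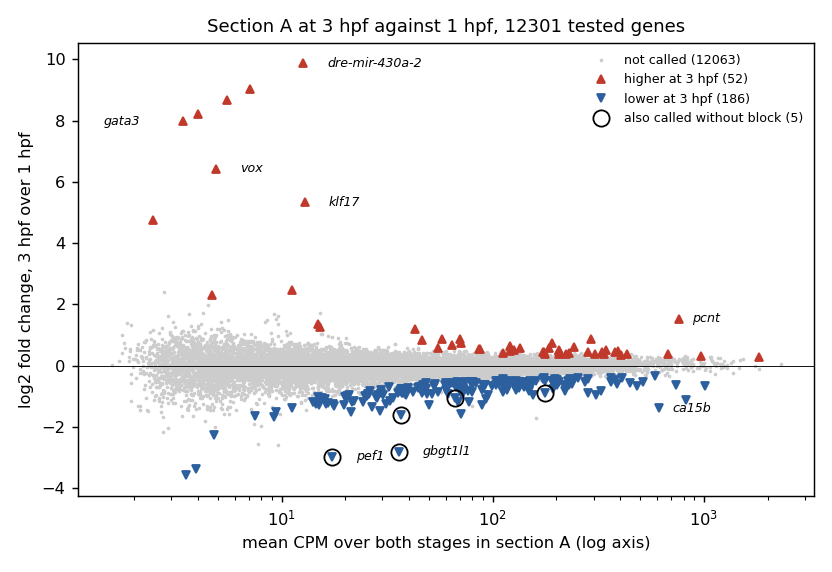
Log2 fold change of each of 12301 tested genes in section A (3 hpf over 1 hpf) against its mean CPM over both stages on a log axis. Triangles are the 52 genes higher and 186 lower with the replicate block, and rings mark the 5 called without it. Zygotic transcripts reach log2 changes over 5, while most called genes lie between -1.5 and 1.5.

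The largest gains were zygotic transcripts that were absent or nearly absent from section A at 1 hpf. The 13 miR-430 precursor rows held 874, 120 and 612 summed counts at 3 hpf and 0 counts in each of the 3 libraries of 1 hpf. This corresponded to 157, 26.7 and 136 CPM at 3 hpf. With a limit of 3 counts over the 1 hpf group, the counts summed over the 3 hpf libraries were at least 479-fold higher. Replicate 2 of 3 hpf was the lowest of the 3 by a wide margin, and both 2 hpf libraries held 0 counts. The single row with most reads, dre-mir-430a-2, had 43.4, 3.78 and 28.8 CPM at 3 hpf and 0 CPM throughout 1 hpf, at least 116-fold higher (edgeR with block, adjusted p = 1.47e-05; without it 0.228). The rows dre-mir-430a-13, dre-mir-430a-4 and dre-mir-430a-10 also rose, at least 63.9-fold, 49.9-fold and 35.5-fold. These 4 rows passed the filter on low counts only through their 3 hpf libraries, so their share called says nothing about the family, and 9 rows were not tested. Each row of the count table holds at least 60 counts over all libraries. All 13 rows are thus present only through 3 hpf counts, and the direction of their gain was set by having a row. Reads of near-identical precursor copies may be split among rows, which the sum would meet, or left uncounted, which it would not. How such reads were counted is not given in the sources used here.

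Among protein-coding genes of the first zygotic wave, klf17, a Krüppel-like transcription factor gene of the enveloping layer, the outer epithelium of the blastula, had 24.5, 10.5 and 40.8 CPM at 3 hpf and 0, 0.827 and 0.598 CPM at 1 hpf. The samples did not overlap, and the log2 fold change was 5.34 ± 0.70 (SE; adjusted p = 2.63e-05 with block, 0.0763 without). At 2 hpf it was still at 0.647 and 0.302 CPM. The transcription factor gene gata3 had 7.74, 5.34 and 7.32 CPM at 3 hpf and 0 CPM in every 1 hpf library, at least 29.9-fold higher (adjusted p = 0.00223 with block, 0.102 without). The homeobox gene vox, which encodes a repressor of dorsal genes, had 6.12, 3.56 and 18.9 CPM at 3 hpf and 0.661, 0 and 0 CPM at 1 hpf. Its 135 counts against 1 gave a ratio of 121 (95% exact interval 21.3 to 4810, counting error only; adjusted p = 0.00144 with block, 0.193 without). Without replicate 3 of both stages vox no longer passed (adjusted p = 0.0677).

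**Figure D2:**
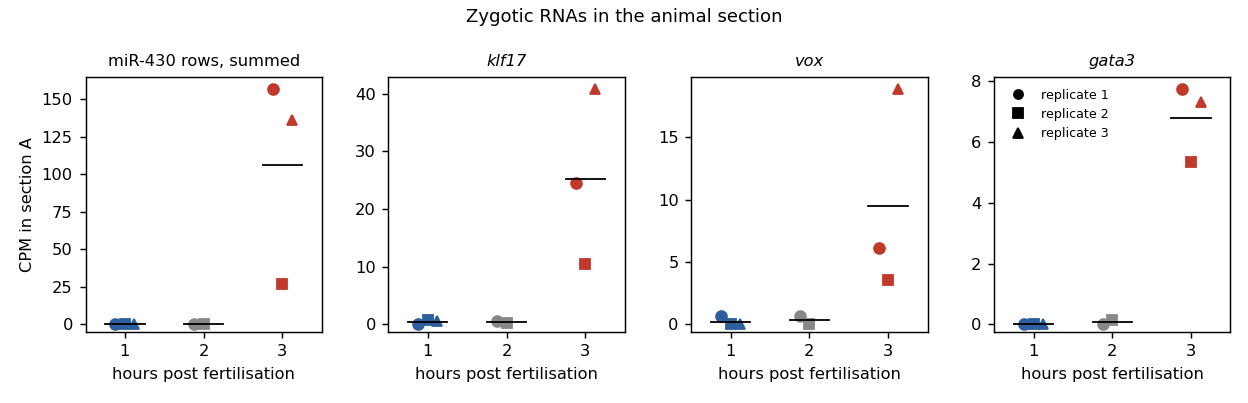
CPM in each section A library at 1, 2 and 3 hpf for the summed miR-430 precursor rows, klf17, vox and gata3. Symbols mark replicate numbers and bars the mean. All 3 hpf libraries lie above all libraries of 1 and 2 hpf, with replicate 2 of 3 hpf lowest in each panel.

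Other early zygotic genes did not pass the filter on low counts and have no test. Since each row of the count table holds at least 60 counts over all libraries, a gene near 0 at 1 and 2 hpf has a row only through 3 hpf. The direction of such a gene was set by having a row, so its values are a description. The Hairy-related repressor gene her5 had 9.0, 0.222 and 29.7 CPM at 3 hpf and 0 CPM throughout 1 hpf. With counts summed over each stage it was at least 55.2-fold higher. The Iroquois homeobox gene irx7 had 4.32, 0.445 and 19.1 CPM at 3 hpf and 0, 0.414 and 0 CPM at 1 hpf, a count ratio of 50.2 (13.6 to 419). In both, replicate 2 of 3 hpf was under 0.5 CPM and replicate 3 was highest. For her5 replicate 2 was below the limit of 0.23 CPM that 3 counts set for the 1 hpf group. The fold and the ratio therefore hold for the summed counts and not for that library. The growth arrest gene gadd45bb summed to 86 counts at 3 hpf against 1 at 1 hpf, grhl3, a grainyhead-like gene of the enveloping layer, to 55 against 1, and nnr to 55 against 0. Of the other untested genes of the list with a row, aplnrb averaged 4.24 CPM at 3 hpf and 0 CPM at 1 hpf, gata2a 1.46 and 0.199 CPM, noto 0.831 and 0 CPM, vent 0.80 and 0 CPM, and apoeb 2.73 ± 3.82 and 1.74 ± 2.03 CPM, with overlap. Of 39 listed first zygotic genes, 18 had a row and 8 were tested: 3 rose (against 0.423% of all tested genes), 1 fell and 4 did not pass. As with the miR-430 rows, klf17, vox and gata3 passed the filter only through their 3 hpf libraries, so the count of 3 says nothing about the list. The one that fell was the oogenesis-related gene org, with 340, 489 and 275 CPM at 3 hpf and 598, 590 and 590 CPM at 1 hpf. Its log2 fold change was -0.68 ± 0.18 (adjusted p = 0.00529 with block, 0.338 without).

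The cytolinker gene ppl, a maternally supplied enveloping layer gene, was not called. It averaged 115 ± 26.8 CPM at 3 hpf and 114 ± 7.45 CPM at 1 hpf (SD, n = 3 each; edgeR with block, adjusted p = 0.969).

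The maternal factors that prime genome activation were not called. None of 13 tested genes passed (list median 0.18 against 0.01 over all genes; 0 by either fit). The homeobox gene nanog had 1158 ± 52.3 CPM at 3 hpf and 1001 ± 101 CPM at 1 hpf, and pou5f3, the zebrafish POU5F1 relative, 962 ± 104 and 821 ± 52.3 CPM. For sox19b, the maternal SoxB1 gene, the means were 765 ± 57.3 and 714 ± 7.67 CPM.

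Outside the listed zygotic genes, the largest gain among called genes of at least 10 CPM with a descriptive symbol was that of lbx2, a homeobox gene. It had 25, 14.5 and 15.5 CPM at 3 hpf and 7.93, 2.27 and 1.79 CPM at 1 hpf (log2 fold change 2.46 ± 0.56; adjusted p = 0.00137 with block, 0.266 without). Its 2 hpf libraries lay at 4.20 and 40.7 CPM, far apart. The Nemo-like kinase gene nlk2 rose with a log2 fold change of 1.37 ± 0.46, but its groups overlapped and it no longer passed without replicate 3 (adjusted p = 0.364). The calsyntenin gene clstn1 rose by 0.64 ± 0.15 log2 units and pttg1ipb, which encodes a securin-binding protein, by 0.54 ± 0.15. The last of these no longer passed without replicate 1 or replicate 2 (adjusted p = 0.0677 and 0.0661).

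A pair of transcripts with roles at the centrosome gained in section A. Pericentrin (pcnt), a scaffold of the pericentriolar material, had 1204, 1082 and 1115 CPM at 3 hpf against 189, 279 and 689 CPM at 1 hpf. The 3 hpf libraries were alike and the 1 hpf libraries spread widely, with replicate 3 highest and all below 3 hpf. The log2 fold change was 1.53 ± 0.40 without and 1.73 ± 0.23 with the block (adjusted p = 0.32 and 0.00111), and at 2 hpf pcnt already stood at 1712 and 1387 CPM. The gene lrmp, maternally needed in zebrafish for joining the nucleus to the centrosome, had 489, 432 and 445 CPM at 3 hpf and 292, 305 and 385 CPM at 1 hpf (log2 fold change 0.48 ± 0.12; adjusted p = 0.0181 with block, 0.294 without). It no longer passed without replicate 1 of both stages (adjusted p = 0.0638). The nesprin gene syne2a, which encodes a nuclear envelope linker to the cytoskeleton and was named for the size of its change, rose by 0.74 ± 0.28 log2 units (adjusted p = 0.0045 with block, 0.597 without).

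Of 32 tested centrosome genes, 2 rose (pcnt and lrmp), 1 fell and 29 did not pass (median 0.04; 1.93% of all tested genes were called). The one that fell was stil_1, a row of the centriole duplication gene stil, at 54.4 ± 14.2 CPM at 3 hpf and 97.7 ± 7.95 CPM at 1 hpf (adjusted p = 0.00302 with block, 0.25 without). The related scaffold genes cdk5rap2 (log2 fold change 0.05 ± 0.13) and cep192 (0.08 ± 0.17) were not called.

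Some histone transcripts rose. The linker histone gene histh1l2 had 24.7, 23.6 and 15.7 CPM at 3 hpf and 8.59, 8.69 and 9.56 CPM at 1 hpf, with no overlap (log2 fold change 1.25 ± 0.27; adjusted p = 0.0273 with block, 0.233 without). It missed the threshold without replicate 2 (adjusted p = 0.0781). Of 24 listed histone and histone supply genes, 2 rose, 1 fell and 21 did not pass (median 0.09), where 0.423% of all tested genes rose and 1.51% fell. The variant H3.3 gene h3f3a averaged 323 ± 16.7 CPM at 3 hpf and 239 ± 29.1 CPM at 1 hpf, and the H2A gene hist1h2a2 232 ± 14.5 and 179 ± 8.64 CPM. The damage-linked variant gene h2ax, named after its values were seen, averaged 452 ± 32.1 and 359 ± 25.8 CPM. Without replicate 1 or replicate 3 these 3 genes no longer passed, with adjusted p from 0.102 to 0.242. The histone chaperone gene asf1ba fell by 0.64 ± 0.18 log2 units, and without replicate 3 it missed the threshold (adjusted p = 0.0891).

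Of 31 tested cell cycle genes, 1 rose, 2 fell and 28 did not pass (median 0.06; 1.93% of all tested genes were called). The mitotic cyclin gene ccnb1 had 1959, 1929 and 2078 CPM at 3 hpf and 1524, 1690 and 1722 CPM at 1 hpf, a log2 fold change of 0.28 ± 0.07. Its relative ccna1, at 1294 ± 105 and 1081 ± 82.7 CPM, was not called (adjusted p = 0.0987 with block). The gene fbxo5, which encodes an inhibitor of the anaphase-promoting complex and is itself an animal transcript, had 499, 575 and 468 CPM at 3 hpf against 680, 693 and 583 CPM at 1 hpf (-0.34 ± 0.10). The E2F family gene e2f5 changed by -0.77 ± 0.17. All 3 calls depended on single replicate numbers. Without replicate 1 the adjusted p was 0.289 for ccnb1, 0.163 for fbxo5 and 0.0687 for e2f5, and without replicate 3 it was 0.191 for ccnb1 and 0.141 for fbxo5. None of 40 DNA replication genes passed (median -0.11). Of them 7 were above 0, where 6255 of all 12301 tested genes were, and a shift of the list was not tested.

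Germ plasm was the list with most losses. Of 14 tested germ plasm genes, 6 fell, 0 rose and 8 did not pass, where 1.51% of all tested genes fell. Their median was -0.34 against 0.01 over all genes, and 0 passed without the block. For ca15b, a carbonic anhydrase gene whose RNA lies in the germ plasm, the 3 hpf libraries had 421, 401 and 191 CPM and the 1 hpf libraries 1016, 1260 and 393 CPM. The groups overlapped, with replicate 3 the lowest at both stages, while within each number the 3 hpf value was below the 1 hpf value. The blocked log2 fold change was -1.32 ± 0.10 (adjusted p = 6.90e-06) and the unblocked -1.38 ± 0.43 (adjusted p = 0.448).

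The translational repressor gene nanos3 had 52.7, 45.8 and 41.3 CPM at 3 hpf and 123, 101 and 96.5 CPM at 1 hpf, without overlap (-1.18 ± 0.15; adjusted p = 0.000105 with block, 0.0754 without). The gene dnd1, whose product guards germline mRNAs against miR-430, had 54.0, 41.6 and 27.5 CPM at 3 hpf and 106, 114 and 67.3 CPM at 1 hpf (-1.20 ± 0.28; 0.000204 and 0.273). For ddx4, the vasa helicase gene, the values were 220, 202 and 169 CPM at 3 hpf and 455, 427 and 225 CPM at 1 hpf (-0.89 ± 0.24; 0.00111 and 0.339). Here too replicate 3 of 1 hpf was the lowest of its group and the groups did not overlap. The Tudor domain gene tdrd7a changed by -0.59 ± 0.14 and gra by -0.80 ± 0.20. The call of gra was lost without replicate 2 or 3 (adjusted p = 0.179 and 0.0691), whereas the other 5 passed whichever replicate number was left out.

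Other germ plasm RNAs were not called. The organiser gene buc had 1148, 1294 and 1321 CPM at 3 hpf and 1525, 1516 and 1414 CPM at 1 hpf, lower in 3 of 3 pairs but not called (-0.24 ± 0.07; adjusted p = 0.128 with block, 0.422 without). The mainly vegetal RNA dazl averaged 42.4 ± 3.94 and 54.3 ± 25.3 CPM, with overlap (adjusted p = 0.744 with block). The PIWI gene piwil1 was at 55.1 ± 6.22 and 51.7 ± 4.74 CPM. Of 17 tested piRNA pathway genes only the shared members ddx4 and tdrd7a fell, where 1.51% of all tested genes fell. The list median was -0.21, with 3 genes above 0 and 14 below, and a shift of the list was not tested. At 2 hpf section A already held 43.3 and 36.9 CPM of dnd1, 45.9 and 29.6 CPM of nanos3, and 364 and 230 CPM of ca15b, within or below the range of the 3 hpf libraries.

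**Figure D3:**
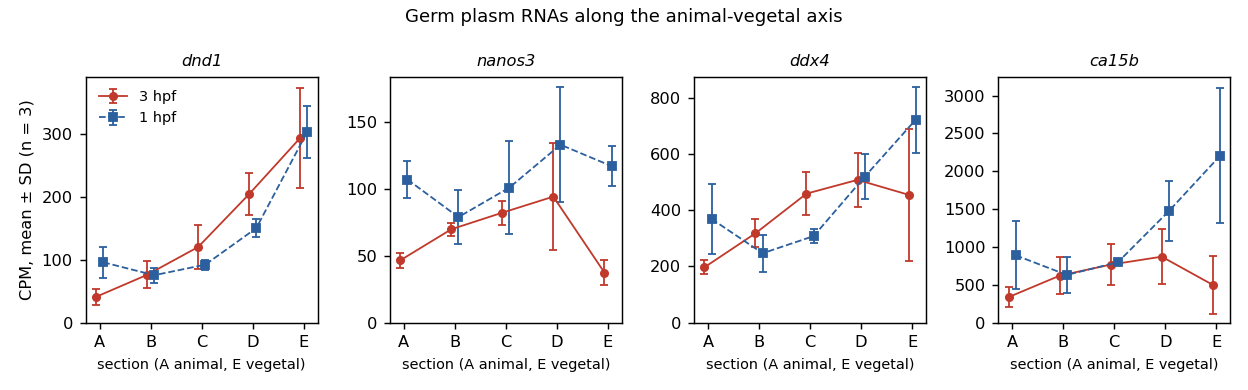
Mean CPM ± SD (n = 3) of 4 germ plasm RNAs in sections A (animal) to E (vegetal) at 3 hpf (circles) and 1 hpf (squares). In section A the 3 hpf mean is below the 1 hpf mean for all 4. For dnd1 the 2 stages are alike in B, at 75.9 and 75.3 CPM.

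Along the axis the means of dnd1, nanos3, ca15b and ddx4 are described in turn, and the genes were not tested against each other. The mean of dnd1 in sections B to E was 75.9, 120, 204 and 293 CPM at 3 hpf and 75.3, 92.0, 150 and 303 CPM at 1 hpf, so its mean was lower in A and E and not in B, C or D. The change of dnd1 in A minus the mean change in B to E was -1.39 ± 0.24 log2 units (edgeR with embryo block, adjusted p = 0.00632). For nanos3 and ca15b the 3 hpf mean was below the 1 hpf mean in all 5 sections, and their change in A was not shown to differ from that in B to E (differences of -0.52 ± 0.23 and -0.63 ± 0.46; adjusted p = 0.705 and 0.928). For ddx4 the means were 318 and 459 CPM at 3 hpf in B and C, against 247 and 308 CPM at 1 hpf, above rather than below. In D and E they were 508 and 455 CPM at 3 hpf, below the 519 and 722 CPM at 1 hpf. The change of ddx4 in A minus the mean change in B to E, -0.94 ± 0.27, did not pass (adjusted p = 0.219).

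The largest losses among called genes of at least 10 CPM with a descriptive symbol were of RNAs with various roles outside the germ plasm list. The penta-EF-hand calcium-binding gene pef1 had 3.96, 3.11 and 4.66 CPM at 3 hpf and 27.8, 30.4 and 34.7 CPM at 1 hpf, 7.87-fold lower (log2 fold change -2.98 ± 0.26; adjusted p = 0.0286 without and 2.14e-05 with block). The glycosyltransferase gene gbgt1l1 had 5.76, 10.2 and 11.1 CPM at 3 hpf against 55.5, 57.1 and 75.2 CPM at 1 hpf, 6.98-fold lower (-2.80 ± 0.28; 0.0286 and 6.16e-06). In both, every 3 hpf library was far below every 1 hpf library. At 2 hpf pef1 stood at 14.9 and 16.6 CPM and gbgt1l1 at 30.4 and 32.8 CPM, between the other stages.

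The cordon-bleu-like gene cobll1a, an actin regulator relative, had 17.6, 18.2 and 18.6 CPM at 3 hpf and 50.2, 61.4 and 54.7 CPM at 1 hpf (-1.61 ± 0.16; adjusted p = 0.0286 without and 0.000114 with block). The microtubule-associated gene eml3 averaged 42.8 ± 3.38 and 90.0 ± 2.1 CPM (-1.07 ± 0.12; 0.0424 and 0.0004). Both were named also because they passed without the block, as was rab11fip1a, which encodes an effector of the recycling endosome GTPase Rab11, at 123 ± 11.7 and 230 ± 3.19 CPM (-0.89 ± 0.10; 0.039 and 0.000161). A Rab11-like GTPase gene, rab11al, had 14.9, 14.2 and 16.4 CPM at 3 hpf and 50.2, 35.8 and 43.8 CPM at 1 hpf (-1.49 ± 0.19; 0.0763 and 0.000619).

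The growth factor gene hbegfa, a heparin-binding EGF-like ligand, had 29.5, 49.6 and 27.1 CPM at 3 hpf and 113, 133 and 71.7 CPM at 1 hpf, 2.96-fold lower (-1.57 ± 0.29). Among the other large losses, alg13, which encodes an enzyme that builds the precursor of N-linked glycans, had 54.9, 66.1 and 31.7 CPM at 3 hpf against 128, 129 and 120 CPM at 1 hpf (-1.30 ± 0.24), and alg10, which encodes another such enzyme, averaged 3.68 ± 2.27 and 11.2 ± 1.88 CPM. Of genes for mitochondrial proteins, the ubiquitin ligase gene marchf5 had 14.9 ± 4.96 and 38.7 ± 3.21 CPM, the mitophagy receptor gene bnip3la 4.92 ± 2.56 and 13.8 ± 3.31 CPM, and the iron-sulfur assembly gene isca2 6.16 ± 1.45 and 16.2 ± 2.23 CPM. The pleckstrin homology gene plekhj1 averaged 10.9 ± 3.06 and 31.7 ± 10.5 CPM. For alg10, bnip3la and isca2 the call was lost without replicate 3, at adjusted p from 0.13 to 0.147. For bnip3la and isca2 it was also lost without replicate 2 (0.151) and replicate 1 (0.0544) in turn.

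**Figure D4:**
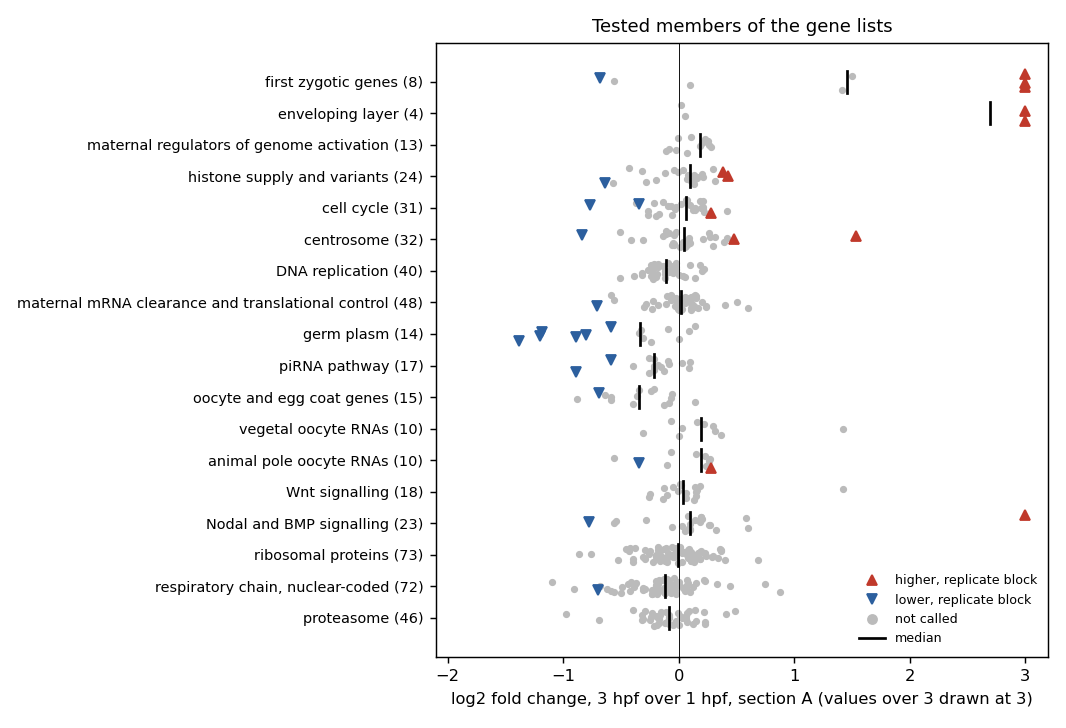
Log2 fold change in section A (3 hpf over 1 hpf) of the tested members of 18 gene lists, with the number tested in parentheses and the median as a bar. Up-triangles rose and down-triangles fell with the replicate block; values over 3 are drawn at 3. Germ plasm has 6 of 14 members lower and none higher, and ribosomal proteins have 0 of 73 called.

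Large housekeeping and signalling lists had medians from -0.12 to 0.10 and few calls, where 0.423% of all tested genes rose and 1.51% fell. None of 73 ribosomal protein genes (median -0.01), 46 proteasome genes (-0.08), 18 Wnt genes (0.04) or 7 stress response genes (-0.06) passed, and of 72 nuclear-coded respiratory chain genes only cox4i1 fell (-0.70 ± 0.22; list median -0.12). Of these 72 genes 15 were above 0 and 57 below, and a shift of this list was not tested. Of 48 genes of maternal mRNA clearance and translational control, the decapping gene dcp1a fell (-0.71 ± 0.18) and 47 did not pass (median 0.02). Of 23 Nodal and BMP genes vox rose, but it passed the filter on low counts only through its 3 hpf libraries. On the same list skila, which encodes a SMAD corepressor, fell. It had 51.5, 70.5 and 73.6 CPM at 3 hpf against 104, 113 and 119 CPM at 1 hpf (edgeR adjusted p = 0.00295 with block, 0.223 without). Among 15 tested oocyte and egg coat genes 1 was above 0, where 6255 of all 12301 tested genes were. The list median was -0.34, zp3.2 fell (-0.69 ± 0.24), and a shift of the list was not tested. The calls of cox4i1, dcp1a and zp3.2 were lost without replicate 3 (adjusted p = 0.115, 0.448 and 0.41).

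None of 10 tested vegetal oocyte RNAs was called in section A (median 0.19). The dorsal determinant hwa came closest, at 12.1 ± 3.92 CPM at 3 hpf and 4.61 ± 0.60 CPM at 1 hpf (1.42 ± 0.35; adjusted p = 0.0547 with block, 0.295 without). Of 10 animal pole oocyte RNAs, ccnb1 rose and fbxo5 fell, as given above, where 0.423% of all tested genes rose and 1.51% fell. Of 3 ovarian follicle cell genes with a row, lhcgr and gsdf were each under 2 CPM on average at both stages. The steroidogenic gene cyp11a1.1, which is also stored in the egg, fell to 123 ± 14.1 CPM at 3 hpf against 184 ± 22.3 CPM at 1 hpf (-0.56 ± 0.13). Without replicate 1 it missed the threshold (adjusted p = 0.0766). The summed follicle list ran from 107 to 137 CPM at 3 hpf and from 167 to 209 CPM at 1 hpf, and its part in the losses was not tested.

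The transcripts gained and lost in section A were then followed through the other sections of the same embryo samples. For the genes that rose in A, the median log2 change of 3 over 1 hpf (means plus 0.5 CPM) was 0.55 in A, 0.44 in B, 0.25 in C, 0.30 in D and 0.22 in E. For those that fell it was -0.75, -0.66, -0.71, -0.68 and -0.59, while over all tested genes it lay between -0.01 and 0.01 in every section. The sections share embryos, and the genes were chosen for their change in A, so these medians are a description. klf17 averaged 25.2 CPM in A, 32.9 in B, 47.9 in C, 42 in D and 0.887 in E at 3 hpf. In the same stage the miR-430 rows summed to 157, 26.7 and 136 CPM in A (replicates 1 to 3). They summed to 175, 49.3 and 182 CPM in B, 102, 112 and 162 in C, and 16.3, 136 and 127 in D. In E they summed to 0, 2.16 and 0 CPM, from 0, 4 and 0 counts.

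A direct test asked which genes changed in A by another amount than the mean of B to E. Of 12667 genes, 3 had a higher change in A than the mean of B to E (0.0237%) and 20 a lower one (0.158%). Each had the same sign in all 3 same-numbered comparisons. Such agreement is favoured by the call itself, and its share over all genes was not counted. Without the embryo block 0 passed (edgeR; 377 at an unadjusted p under 0.05), and leaving out 3 hpf replicate 1, 2 or 3 gave 7, 1 or 67 calls and leaving out 1 hpf replicate 1, 2 or 3 gave 1, 1 or 83. The largest was pcnt, whose mean in sections A to E was 1134, 1067, 1042, 529 and 114 CPM at 3 hpf and 386, 917, 1370, 638 and 1037 CPM at 1 hpf. It was higher in A and lower in E at 3 hpf, and the difference was 2.58 ± 0.34 log2 units (adjusted p = 0.000175). For lrmp, section A had 455 CPM at 3 hpf and 327 CPM at 1 hpf, and section E 36.3 and 338 CPM. In B, C and D the lrmp means were 439, 442 and 271 CPM at 3 hpf and 432, 486 and 272 CPM at 1 hpf. Its largest change was thus in E, and the difference was 1.32 ± 0.25 (adjusted p = 0.00952). The third was ppdpfb, level in A at 192 and 193 CPM (3 and 1 hpf). It was lower at 3 hpf in D, at 106 and 207 CPM, and in E, at 109 and 205 CPM (difference 0.52 ± 0.11, adjusted p = 0.0392). Of these 3, pcnt passed without any single embryo sample.

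**Figure D5:**
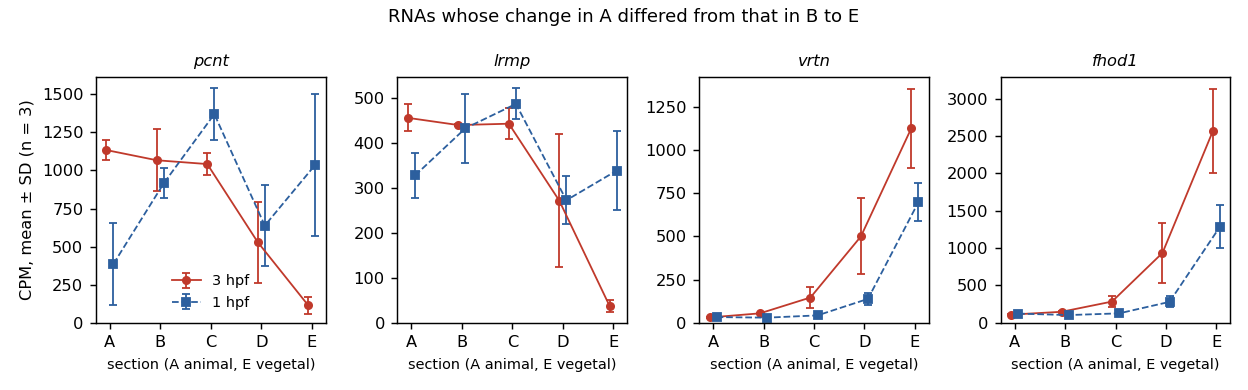
Mean CPM ± SD (n = 3) of pcnt, lrmp, vrtn and fhod1 in sections A to E at 3 hpf (circles) and 1 hpf (squares). For pcnt and lrmp the 3 hpf mean is higher in A and lower in E, and for vrtn and fhod1 it is higher in B to E, with 30.3 and 32.5 CPM of vrtn in A (3 and 1 hpf).

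All 20 with a lower change in A than in B to E had a higher mean in E than in A at 1 hpf. In 19 of them the 3 hpf mean was above the 1 hpf mean in B, C and D, and in 2 it was above in A. These genes were chosen for a lower change in A than in B to E, so the counts of 19 and 2 largely follow from that choice. How many of all tested genes had a higher mean in E than in A was not counted, so these numbers are a description. The gene vrtn, a maternal regulator of dorsoventral patterning, averaged 30.3, 54.2, 146, 500 and 1128 CPM in A to E at 3 hpf, against 32.5, 29.2, 42.3, 138 and 699 CPM at 1 hpf (difference -1.30 ± 0.27, adjusted p = 0.0281). The formin gene fhod1 averaged 108, 146, 283, 935 and 2570 CPM at 3 hpf, against 122, 102, 125, 279 and 1287 CPM at 1 hpf (-1.24 ± 0.24, adjusted p = 0.0129). In section A itself neither was called, with log2 fold changes of -0.07 ± 0.21 and -0.15 ± 0.19. A lower change in A than the mean of B to E was also found for the importin gene kpna6 (-1.20) and the amino acid transporter gene slc7a6 (-1.08). The others were ccdc88c, which encodes a Dishevelled-binding protein (-1.07), the ArfGAP gene git1 (-1.04) and the lysosomal anchor gene lamtor1 (-1.03). None of these was called in section A itself, with log2 fold changes of -0.48 ± 0.18, -0.19 ± 0.30, -0.40 ± 0.10, -0.08 ± 0.22 and -0.29 ± 0.17 in that order. In E the 3 hpf mean was above the 1 hpf mean for these too, except for ccdc88c, at 949 and 1008 CPM. Of the 20, dnd1 was the 1 gene called lower in A by the replicate block test.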

How the data were processed

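RNA of 40 section libraries was read as whole-number counts per gene from the table the authors deposited (12670 genes, each with at least 60 counts over all libraries). The submitters' processing notes name the tools STAR 2.7.11, fastp 0.23.4, DESeq2 and HTSeq 2.0.4, and the genome build GRCz11. The roles of the tools, the annotation and the rule on low counts are not given in the sources used here. Per the labels' protocols, total RNA (TRI reagent, then lithium chloride precipitation) was depleted of ribosomal RNA and made into strand-specific libraries. The third replicate at 2 hpf has no column and is not analysed here. A total of 1082 rows carry a copy number after the symbol, 7 of them among the called genes, and the counting may divide reads of near-identical copies between such rows. Values of stil_1, the histone genes and single miR-430 rows are therefore uncertain. The miR-430 sum is uncertain too if such reads were left uncounted.

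Section A at 3 hpf was compared with section A at 1 hpf by edgeR 4.0.16 (R 4.3.3), quasi-likelihood test, TMM factors, filterByExpr and Benjamini-Hochberg adjustment over all genes tested at 0.05. The standard error (SE) is the log2 fold change divided by the root of the F statistic. Printed CPM are the deposited counts scaled by library total and TMM factor (over all 40 libraries). Deviations from the stage means correlated between same-numbered samples (r = 0.362, 0.459 and 0.772 across genes, all over 0.1), so the numbers were taken to pair the samples. The deviations within a stage sum to 0. With number 3 apart in both stages, positive values for numbers 1 and 2 largely followed, so the check bears mainly on number 3. The pairing comes from this check alone, since no label explains a shared number, and numbers 1 and 2 were not separable (crossed 0.529 and 0.351). The difference between sections was tested over 30 libraries with each embryo sample as a block. For genes with 0 counts at 1 hpf, folds are bounds against 3 counts over the group. They use counts summed over the libraries of a stage and need not hold in each library. Count ratios carry exact 95% intervals, and both cover counting error only. DESeq2 1.42.0 was an alternative, and the tests were tried on simulated data.

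The comparison, gene lists and tests were chosen with earlier results of these data known. Named genes were the 12 with the largest change in each direction among called genes of at least 10 CPM with a descriptive symbol and the same direction in all 3 pairs, up to 4 called members per list, a fixed set, and the 8 with the largest difference in each direction in the section test. Some genes that this rule or the lists hold are not reported here. Of 12301 tested rows, 11851 (96.3%) matched the RefSeq gene table of assembly GRCz12tu, used for names and neighbours only.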

Additional observations from a re-analysis of the deposited data

Results flagged for a closer look

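The change from 1 to 3 hpf in section A differed from the mean change in sections B to E, by the test of the difference itself (edgeR with embryo block), for 11 named genes. On the log2 scale, with the section A change minus the mean change elsewhere, the values were 2.58 for pcnt, 1.32 for lrmp and 0.52 for ppdpfb. They were -1.39 for dnd1, -1.30 for vrtn, -1.24 for fhod1, -1.20 for kpna6, -1.08 for slc7a6, -1.07 for ccdc88c, -1.04 for git1 and -1.03 for lamtor1. In section A itself only pcnt, lrmp and dnd1 of these were called, with the replicate block. The same sign in 3 of 3 same-numbered comparisons was a condition for naming these 11. Without the embryo block none of the 11 passed, with adjusted p from 0.121 for pcnt and kpna6 to 0.916 for ppdpfb, slc7a6, ccdc88c and git1. Apart from pcnt, each lost its call without at least 1 embryo sample.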

How the results depend on the processing

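The count of genes called in section A depended on the replicate block, on the tool and on the libraries in the fit. Without the block the count was 5 with TMM, 5 with RLE factors, 5 with library totals, 4 with no filter and 5 with all section A libraries in the fit. It was 9 with rows of 1 symbol summed, 82 with all libraries in 1 fit, and 133 by DESeq2. Of these 82 and 133 genes, 72 and 130 were also among the 238 called by edgeR with the block. Leaving out single libraries gave 0 to 4, and leaving out 1 replicate number gave 0 to 167. With the replicate block it was 238, or 227 with library totals, 186 by DESeq2, and 168 to 512 without 1 number (282 without number 1). Alternatives chosen after seeing the data gave 227 with the block and RLE factors, 240 with symbols summed, 285 with no filter and 279 with a 2-level block (replicate 3 against the rest). The 2-level block without the shallow 1 hpf library gave 297, in which alg10, ccnb1, gra and zp3.2 missed the threshold (adjusted p = 0.0537, 0.0721, 0.0603 and 0.0605). The 5 genes called without the block were called in every fit with it.

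For the difference between sections the count was 23, 22 with library totals, 17 with all libraries, 63 by DESeq2, 67 against C to E alone, and 0 with no embryo block; leaving out 1 embryo sample gave 1 to 83.

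Of the log2 fold changes in section A, 23 values of 7 uncalled genes changed sign, with adjusted p of at least 0.703. Leaving out 1 library or number without the block, or 1 number with the replicate block, gave dazl -0.66 to 0.04 and -0.67 to 0.09, slc7a6 -0.48 to 0.20 and -0.43 to 0.15, vrtn -0.26 to 0.04 and -0.25 to 0.06, and ppdpfb -0.04 to 0.03 and -0.03 to 0.04. Without the block, fhod1 ran from -0.35 to 0.04, git1 from -0.29 to 0.10 and ppp2r3b from -0.42 to 0.03. The 2-level block without the shallow library gave 0.04 for dazl and git1, 0.17 for slc7a6 and 0.02 for vrtn. In the other 1740 values the direction held, with 39 no longer past the threshold and 520 now past it. The cause of these shifts was not tested. The 7 genes averaged at least 30.3 CPM in section A at both stages, and their unblocked log2 fold changes lay from -0.31 to -0.01. As a separate limit, depth restricts genes of a few CPM, most of all through the 1 hpf library of 1466522 counts.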

Other observations

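Rows next to the histone gene hist1h2a2 rose together in section A. Of 59 tested rows among the 100 genes on either side of it in the RefSeq gene order, 11 rose and 0 fell (18.6% higher, against 0.423% of all tested genes), with a median log2 fold change of 0.25. With 200 or 300 genes on either side the same 11 made up 10.7% and 8.21%. The window was chosen after the values were seen, most of these rows have no descriptive symbol, and reads of near-identical copies can be shared among them.

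The following protein families, not on the lists, were picked for their losses in section A after the values were seen, so their counts are a description (1.51% of all tested genes fell). Of 6 tested genes of the telomere-capping shelterin complex and its nuclease partner, tinf2, acd and dclre1b fell (median -0.47), while terf1 (0.03 ± 0.12) and pot1 (0.16 ± 0.14) were not called. Of 14 tested V-ATPase genes, which encode the proton pump of acidic organelles, atp6v0b fell to 29.0 ± 5.32 CPM at 3 hpf against 70.6 ± 2.58 CPM at 1 hpf (SD, n = 3; edgeR with block, adjusted p = 0.000388), and atp6v1h and atp6v1e1b fell as well. Of 7 importin alpha genes kpna2 and kpna7 fell (-0.56 ± 0.19 and -0.47 ± 0.11), and 0 rose. None of these 8 losses passed without the block (edgeR adjusted p from 0.0763 for atp6v0b to 0.546 for atp6v1e1b). The topoisomerase gene top2a, which untangles replicated chromosomes, was also named after its values were seen. It had 571, 679 and 460 CPM at 3 hpf and 968, 917 and 806 CPM at 1 hpf, with no overlap. The log2 fold change was -0.65 ± 0.14 (edgeR adjusted p = 0.000607 with block, 0.233 without).

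The Frizzled receptor gene fzd8a, under the level set for named genes and outside the Wnt list, had 3.96, 2.45 and 7.98 CPM at 3 hpf and 0, 0.207 and 0.149 CPM at 1 hpf. It rose with the block (edgeR adjusted p = 0.0105, without it 0.163) and had 0 CPM in both 2 hpf libraries. This gene met no rule for named genes, and it passed the filter on low counts only through its 3 hpf libraries.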
